A study of Mus musculus with 9 samples.

Results

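The immediate early genes described here are the 10 genes Fos, Fosb, Fosl2, Jun, Junb, Jund, Egr1, Ier2, Atf3 and Dusp1. They were chosen with earlier results of these data known. Their probe sets were chosen by symbol: every probe set that the platform annotation gives to exactly 1 of these genes was taken, which gave 13 of the 45101 probe sets on the arrays. Of these 13 probe sets, 12 exceeded, on 3 or more of the 9 arrays, the low-intensity threshold set at that array's 40th percentile, and each of the 10 genes had at least 1, so all 10 stand among the 13320 genes fitted. The measurement was mouse total RNA on 9 Affymetrix arrays, 3 in each of 3 groups, and the series text calls the 3 arrays of a group independent biological repeats without saying what was repeated. Values are MAS5 intensities, linear units scaled by the authors to the same trimmed mean on every array.

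The DKK1-treated group was retinal progenitor cells derived from embryonic stem cells (ESC-RPCs) kept for 1 day with recombinant DKK1, which blocks Wnt co-receptors, at 1 ng/ml. The untreated group was ESC-RPCs without DKK1. All ESC-RPCs came from a single stem cell line, 46C, which was made by gene targeting in E14Tg2a.IV cells. Embryoid bodies were formed over 3 days with SB431542, an inhibitor of activin-type receptors that blocks Nodal signalling, and were then plated on Matrigel. Sox1-positive cells (35.8%) were sorted on day 7 and grown in N2 medium that held 20 ng/ml bFGF, a fibroblast growth factor, and 10 µM DAPT, which inhibits gamma-secretase and so Notch signalling. The primary group was retinal progenitor cells (RPCs) taken from C57 mice at postnatal day 1 by dissociating the neural retina, and the series text uses them as its negative control. One label calls these primary cells cultured, while the protocol names dissociation only, and a time in culture or an exposure to bFGF is not given for them. Cell source, mouse strain, tissue dissociation and culture conditions therefore cannot be told apart in any comparison with the primary cells.

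Immediate early genes are transcribed within minutes of a stimulus from factors already present in the cell. Growth factor, calcium and stress signals reach them through kinases of the ERK, JNK and p38 families, which act on serum response factor with its ternary complex partners, on CREB and on AP-1 itself. Most of the members encode parts of AP-1, a dimer of Fos and Jun family proteins that binds DNA through basic leucine zippers, while Egr1 is a zinc finger factor and Dusp1 a phosphatase that turns MAP kinases off. Tissue dissociation is known as a stimulus of these genes, and Fos and Egr1 are widely used in retina and brain as marks of recent neuronal activity.

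Promoter windows from RefSeq (assembly GRCm38.p6, 250 bases before to 50 bases after the annotated start) were found for 8 members. Egr1 and Ier2 had no entry. The GC content of the windows lay between 46.7% for Jund and 68.3% for Fosb, against a median of 52.7% over all promoters. The 6 windows with a match to a motif known from immediate early promoters are shown, written 5′ to 3′ on the strand of the gene, with the matches in capitals.
Fos, chr12:85473640-85473939, plus strand: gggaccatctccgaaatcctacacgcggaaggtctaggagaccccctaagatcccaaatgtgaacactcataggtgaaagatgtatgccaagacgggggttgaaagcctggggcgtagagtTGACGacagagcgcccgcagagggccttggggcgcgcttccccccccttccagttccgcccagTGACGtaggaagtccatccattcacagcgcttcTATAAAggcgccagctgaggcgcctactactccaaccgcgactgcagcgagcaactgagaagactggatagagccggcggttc
Fosb, chr7:19309996-19310295, minus strand: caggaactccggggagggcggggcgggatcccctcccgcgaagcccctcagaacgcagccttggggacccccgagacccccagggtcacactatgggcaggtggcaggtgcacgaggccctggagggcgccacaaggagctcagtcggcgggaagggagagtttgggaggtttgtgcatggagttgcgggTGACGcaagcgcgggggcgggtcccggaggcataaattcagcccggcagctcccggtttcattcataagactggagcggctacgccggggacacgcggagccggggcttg
Jun, chr4:95052173-95052472, minus strand: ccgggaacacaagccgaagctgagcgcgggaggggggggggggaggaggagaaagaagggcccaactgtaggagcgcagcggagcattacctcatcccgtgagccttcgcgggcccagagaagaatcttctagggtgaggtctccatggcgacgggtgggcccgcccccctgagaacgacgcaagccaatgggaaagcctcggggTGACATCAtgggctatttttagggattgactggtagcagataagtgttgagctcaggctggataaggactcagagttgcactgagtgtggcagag
Junb, chr8:84978699-84978998, minus strand: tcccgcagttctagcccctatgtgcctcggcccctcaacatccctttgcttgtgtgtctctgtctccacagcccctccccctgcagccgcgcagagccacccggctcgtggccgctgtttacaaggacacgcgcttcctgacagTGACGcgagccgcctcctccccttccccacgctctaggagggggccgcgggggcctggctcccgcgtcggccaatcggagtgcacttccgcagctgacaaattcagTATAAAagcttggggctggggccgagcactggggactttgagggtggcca
Atf3, chr1:191183284-191183583, minus strand: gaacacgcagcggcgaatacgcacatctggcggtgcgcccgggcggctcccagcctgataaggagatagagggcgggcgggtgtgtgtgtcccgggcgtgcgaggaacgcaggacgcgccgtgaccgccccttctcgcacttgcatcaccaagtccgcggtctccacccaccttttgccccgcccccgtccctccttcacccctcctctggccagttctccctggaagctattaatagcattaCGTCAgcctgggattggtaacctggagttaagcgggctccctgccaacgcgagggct
Dusp1, chr17:26508423-26508722, minus strand: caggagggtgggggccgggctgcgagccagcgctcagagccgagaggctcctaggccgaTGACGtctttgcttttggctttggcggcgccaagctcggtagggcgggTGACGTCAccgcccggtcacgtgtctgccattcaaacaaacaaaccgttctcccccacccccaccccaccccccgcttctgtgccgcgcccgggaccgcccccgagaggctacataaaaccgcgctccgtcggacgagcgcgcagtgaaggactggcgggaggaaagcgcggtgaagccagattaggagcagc

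Positions are those of a match's first base, with the annotated start as 1 and no position 0. The cyclic AMP response element TGACGTCA, searched on both strands, was found in the Dusp1 window at -143 and in no other member, against 1.79% of 32851 promoters. Its 5-base part TGACG, which lies within the full element and was also searched on both strands, was present in 5 of the 8 windows and in 20.8% of all promoters. It lay at -129 and -66 in Fos, -60 in Fosb, -106 in Junb, and -191 and -143 in Dusp1. Its reverse complement lay at -140 in Dusp1, within the full element, and at -7 in Atf3. The Jun window held TGACATCA at -45, a form of the AP-1 site that binds Jun with ATF2. This motif, present in 3.62% of promoters on either strand, was chosen for search after the sequences had been read. TATAAA, searched on the gene's strand, stood at -33 in Fos and at 1 in Junb and in 8.32% of all promoters. The classical AP-1 site TGANTCA (7.81% of promoters) and the CArG box bound by serum response factor (1.63%) had no match in any of the 8 windows, both strands being searched. These letter matches are descriptions of the windows and say nothing about binding in these cells.

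Over the whole series, log2 profiles across genes, which are not independent replicates, had Pearson correlations of 0.975 to 0.985 for DKK1-treated with untreated arrays, and of 0.825 to 0.836 for ESC-RPC with primary arrays. Actb, whose ratio of 3-prime to 5-prime signal is a sign of RNA integrity, had ratios of 1.35 ± 0.0184 in DKK1-treated, 1.34 ± 0.0251 in untreated and 1.24 ± 0.0219 in primary cells (SD, n = 3). Sox1, the gene used for the sort, measured 2886 ± 333 in DKK1-treated, 2831 ± 59.8 in untreated and 24.4 ± 16.5 in primary cells. The eye field gene Rax measured 12.5 ± 16.0 in DKK1-treated and 28.2 ± 21.4 in untreated cells, against 3939 ± 943 in primary cells. Rax thus lay below the low-intensity threshold on 5 of the 6 arrays of ESC-RPCs and just above it on untreated replicate 2. Six6, another retinal progenitor gene, was also near the threshold in ESC-RPCs. It measured 63.2 ± 27.7 in DKK1-treated, 46.0 ± 12.9 in untreated and 4386 ± 440 in primary cells. The other retinal progenitor genes measured lay well above the threshold in ESC-RPCs. Pax6 measured 1255 ± 210 in DKK1-treated, 1323 ± 193 in untreated and 10035 ± 1063 in primary cells. Of 11 such genes measured, limma called 7 lower and 3 higher (Sox2, Fgf15 and Sfrp2) in untreated against primary cells, and 1 was not called. Nanog, a pluripotency factor, measured 2331 ± 213 in DKK1-treated, 2103 ± 299 in untreated and 2.35 ± 0.558 in primary cells. In whole-culture RNA, fewer cells that express a gene and less RNA of that gene per cell cannot be told apart.

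Set against primary cells, 9 of the 10 members fell in untreated ESC-RPCs and Jund rose. The changed share of all 13320 genes was 53% in this comparison, with 26.9% lower and 26.1% higher (limma, Benjamini-Hochberg adjusted p below 0.05). The median log2 difference of the members was -1.51, beside -0.00678 over all genes tested. DKK1-treated cells had the same count, 9 members lower and 1 higher, where 52.8% of all genes changed, 26.8% lower and 26% higher. Their median was -1.31, beside -0.00775 over all genes, and since both comparisons use the same primary arrays they are not separate evidence. Fosb and Junb passed the low-intensity filter only with the help of the primary arrays, all 3 of which lay above the threshold, so a difference was built into their selection. Of the remaining 8 members, 7 fell and 1 rose in either comparison. The medians of -1.51 and -1.31 include Fosb and Junb, so the filter had a part in them.

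**Figure D1:**
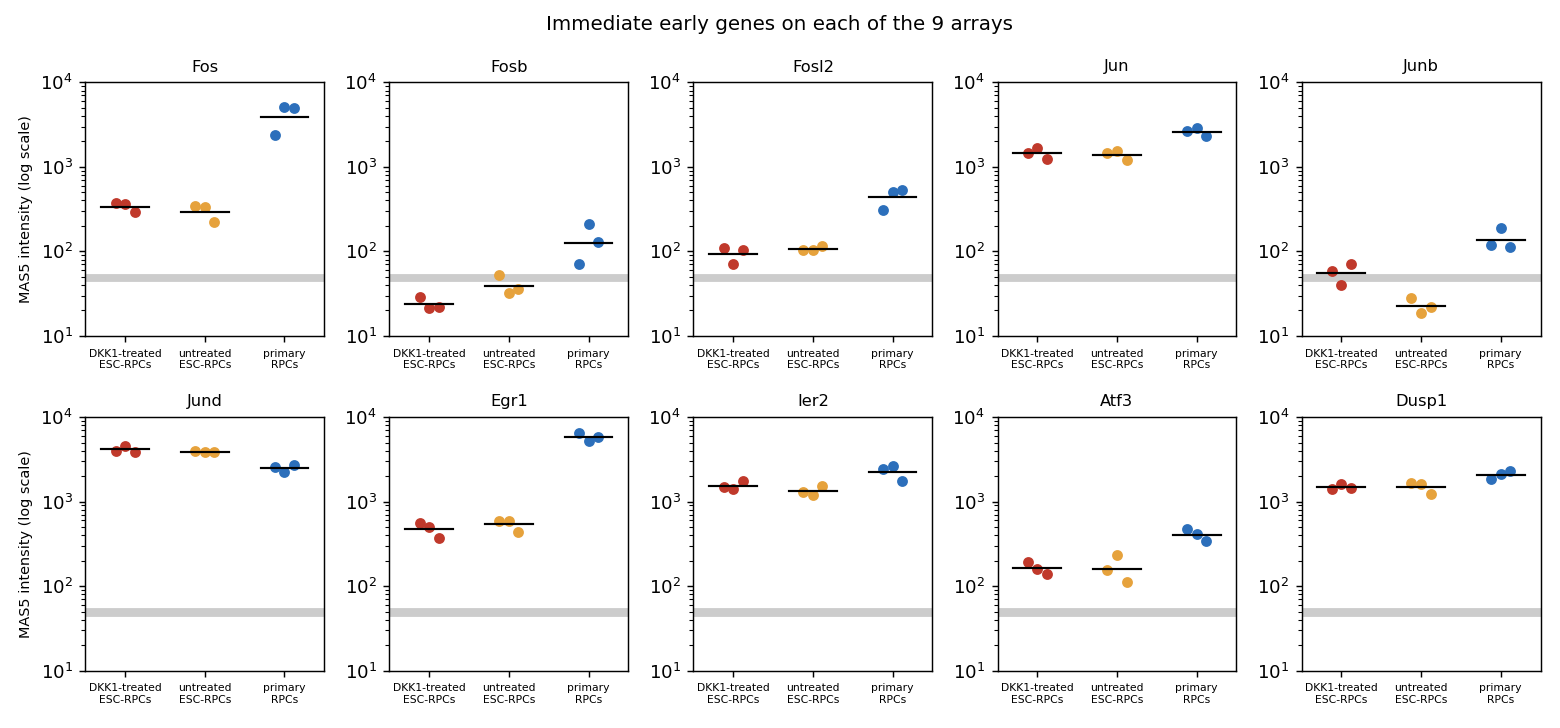
Intensity of the 10 members on each array (log axis), with the 3 DKK1-treated, 3 untreated and 3 primary arrays as points, the geometric mean of each group as a black bar, and the range of the arrays' low-intensity thresholds (44.7 to 52.9) as a grey band. The primary points of Fos and Egr1 lie far above those of both ESC-RPC groups, and Jund is the member with its primary points lowest.

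Fos, the founding AP-1 component and a target of serum response factor and CREB, showed the widest gap between untreated and primary cells. It measured 370.0, 365 and 289 on the DKK1-treated arrays, 345, 331 and 223 on the untreated arrays, and 2375, 5081 and 4995 on the primary arrays. All 6 ESC-RPC values lay below the lowest primary value, and primary replicate 1 was the lowest of the primary arrays. Means were 341 ± 45.5 in DKK1-treated, 299.7 ± 66.8 in untreated and 4150.5 ± 1538 in primary cells (SD, n = 3 each). Fos fell by 3.74 on the log2 scale in untreated against primary cells, a 13.3-fold difference (SE 0.28, 95% interval -4.35 to -3.12, limma adjusted p = 2.02e-06). In all, 125 of the 13320 genes had a log2 difference at least that low, Fos included. DKK1-treated cells differed from primary cells by -3.53 (11.6-fold lower, adjusted p = 3.07e-06).

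Fosb, a Fos family member that shares AP-1 partners with Fos, was a weak signal. Its values were 28.5, 21.6 and 22.2 in DKK1-treated, 52.1, 32.3 and 35.7 in untreated, and 71.3, 212 and 129 in primary cells. No DKK1-treated array, 1 untreated array and all 3 primary arrays lay above their own threshold, and the groups did not overlap. The log2 difference was -1.67 in untreated against primary cells (SE 0.41, 95% interval -2.58 to -0.76, limma adjusted p = 0.00604). For DKK1-treated against primary cells it was -2.38 (limma adjusted p = 0.000713), and because all DKK1-treated values were below threshold the fold is a bound, at least 2.66-fold lower. After adding 32 to every value before taking log2, which damps dim genes, the difference was -1.51 for DKK1-treated and -1.16 for untreated against primary cells.

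Fosl2, which encodes the AP-1 protein Fra-2, is known for slower and longer induction than Fos. The probe set that represents it read 109.5, 70.2 and 104 in DKK1-treated, 104, 103 and 115 in untreated, and 306, 502 and 533 in primary cells. Every ESC-RPC value was below every primary value. Fosl2 fell by 2.02 on the log2 scale in untreated against primary cells (4.05-fold, SE 0.24, limma adjusted p = 6.41e-05) and by 2.23 in DKK1-treated against primary cells (4.68-fold, adjusted p = 3.21e-05). With the probe sets of each gene averaged, these differences were -1.12 (limma adjusted p = 0.00329) and -1.20 (adjusted p = 0.00216).

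Jun, the main partner of Fos and the substrate of JNK, differed by less. On its representing probe set it measured 1475, 1683 and 1252 in DKK1-treated, 1471, 1519.5 and 1198 in untreated, and 2646, 2865 and 2291 in primary cells. Both ESC-RPC groups lay wholly below the primary arrays. The log2 difference was -0.90 for untreated against primary cells (1.87-fold lower, SE 0.14, 95% interval -1.20 to -0.60, limma adjusted p = 0.000303) and -0.83 for DKK1-treated against primary cells (1.77-fold lower, adjusted p = 0.000525). When the probe sets of each gene were averaged, the DKK1-treated difference was -0.40 ± 0.17 and no longer passed the test (limma adjusted p = 0.065), and the untreated one was -0.50 (adjusted p = 0.0273).

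Junb, a Jun family protein that can oppose the action of Jun, was near or below the threshold in ESC-RPCs. It measured 58.6, 40.4 and 70.7 in DKK1-treated, 28.1, 18.5 and 22.1 in untreated, and 118, 187 and 113 in primary cells. The 3 groups did not overlap one another, with untreated arrays lowest and primary arrays highest. Junb fell by 2.58 on the log2 scale in untreated against primary cells (SE 0.34, limma adjusted p = 0.000106). As all 3 untreated arrays were below threshold, the fold is a bound, at least 2.90-fold lower, and with 32 added to every value the log2 difference was -1.62. In DKK1-treated cells the difference from primary cells was -1.30 (2.46-fold lower, SE 0.34, limma adjusted p = 0.00792).

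Jund, the Jun family member known for constitutive expression and for little response to serum, went the other way. Its representing probe set gave 3994, 4596 and 3862 in DKK1-treated, 3967, 3914 and 3817 in untreated, and 2535, 2269 and 2676 in primary cells. The lowest ESC-RPC value exceeded the highest primary value. Jund rose by 0.65 on the log2 scale in untreated against primary cells (1.57-fold, SE 0.09, 95% interval 0.45 to 0.84, limma adjusted p = 0.000146) and by 0.73 in DKK1-treated against primary cells (1.66-fold, adjusted p = 6.12e-05).

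Egr1, a zinc finger transcription factor induced through serum response factor, differed by nearly as much as Fos in untreated cells and by more in DKK1-treated cells. It measured 565, 499 and 375 in DKK1-treated, 593, 595 and 438 in untreated, and 6394, 5150.0 and 5849 in primary cells. No ESC-RPC array approached a primary array, and the highest primary value was 1.24-fold the lowest, against 2.14-fold for Fos. Egr1 fell by 3.43 on the log2 scale in untreated against primary cells (10.8-fold, SE 0.17, limma adjusted p = 1.10e-07), a difference that 161 genes, Egr1 included, matched or exceeded downwards. In DKK1-treated cells the fall was 12.2-fold (log2 difference -3.61, adjusted p = 7.86e-08).

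Ier2, a small nuclear protein induced by growth factors, and Atf3, a stress-induced bZIP factor that dimerises with Jun proteins, were also lower. Ier2 measured 1478, 1394 and 1768 in DKK1-treated, 1300.2, 1202 and 1521 in untreated, and 2407, 2660.3 and 1760.0 in primary cells. The untreated arrays lay below the primary arrays, whereas DKK1-treated replicate 3 slightly exceeded primary replicate 3. Ier2 fell by 0.75 in log2 in untreated against primary cells (SE 0.16, limma adjusted p = 0.00259) and by 0.54 in DKK1-treated against primary cells (SE 0.16, adjusted p = 0.0147). The DKK1-treated call was lost when 1 of 2 arrays was left out, with an adjusted p of 0.0502 without DKK1-treated replicate 1 and 0.0571 without DKK1-treated replicate 2 (limma).

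Atf3 read 194, 160.2 and 139 in DKK1-treated, 153, 234 and 113 in untreated, and 469, 414 and 343 in primary cells. The primary arrays were above all 6 ESC-RPC arrays, and untreated replicate 2 was the highest ESC-RPC value. Atf3 fell by 1.34 on the log2 scale in untreated against primary cells (2.54-fold, SE 0.25, limma adjusted p = 0.00124) and by 1.32 in DKK1-treated against primary cells (2.49-fold, adjusted p = 0.0014).

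Dusp1, the phosphatase that removes activating phosphates from p38, JNK and ERK, had the smallest difference of the 10 members. It measured 1399, 1594 and 1449.8 in DKK1-treated, 1653, 1601 and 1229.7 in untreated, and 1831, 2118 and 2309 in primary cells. The groups did not overlap with the primary arrays, although untreated replicate 1 came close to primary replicate 1. The log2 difference was -0.49 against primary cells in both cases, 1.40-fold lower, with a limma adjusted p of 0.00927 for untreated and 0.00899 for DKK1-treated cells (SE 0.13).

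For untreated against primary cells, 9 members lay wholly below and 1 wholly above, where 60% of all genes had no overlap, 30.6% below and 29.5% above. For DKK1-treated against primary cells 8 members lay wholly below and 1 above, Ier2 being the member that overlapped, beside 59.2% of all genes, 30.2% below and 29% above.

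**Figure D2:**
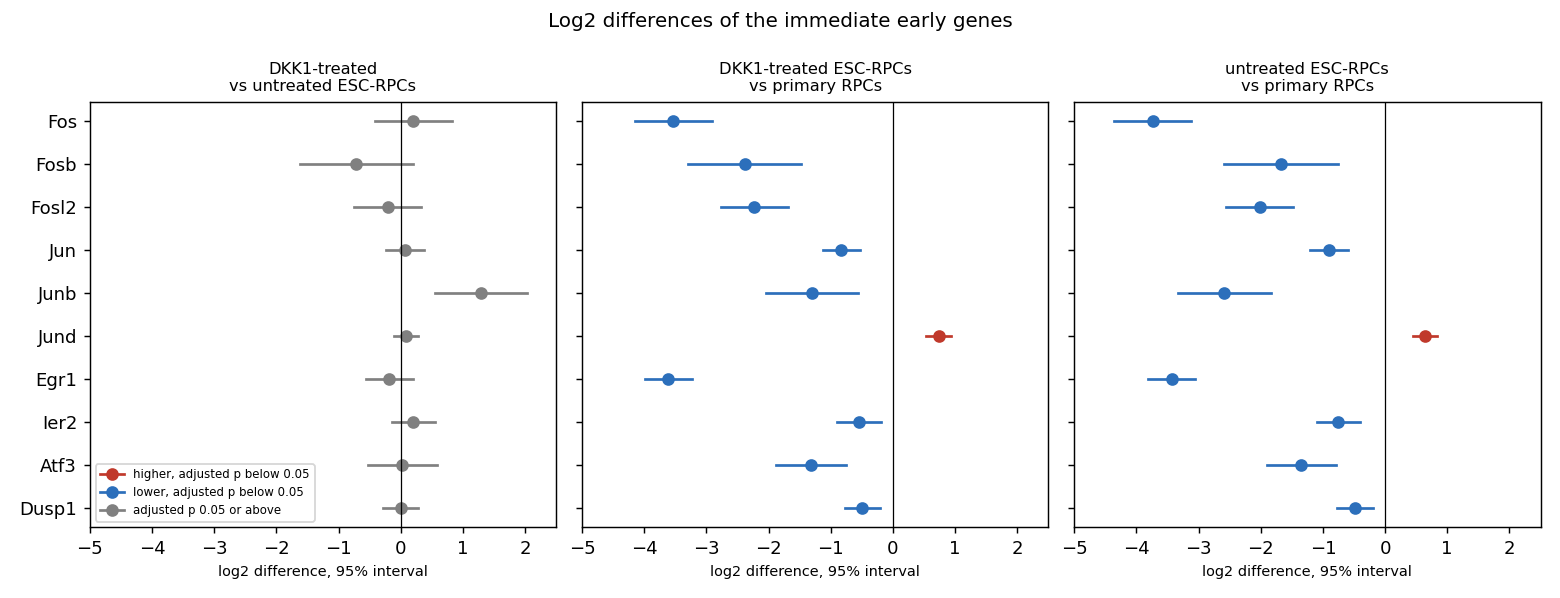
Log2 differences of the 10 members with 95% intervals in 3 panels: DKK1-treated minus untreated, DKK1-treated minus primary and untreated minus primary cells, coloured by the limma call. In the comparisons with primary cells 9 intervals lie below 0 and that of Jund lies above, and no member is called between the ESC-RPC groups.

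The genes with more than 1 probe set did not give 1 answer. For Jun, the second probe set measured 1180.0, 1459 and 885 in DKK1-treated, 1122, 1223 and 851 in untreated, and 1023, 1414 and 1003 in primary cells, so its groups overlapped fully. Its log2 difference was -0.10 ± 0.20 in untreated against primary cells (SE, limma adjusted p = 0.70 over 24773 probe sets) and 0.02 ± 0.20 in DKK1-treated against primary cells (adjusted p = 0.932). Within an array, the log2 ratio of the representing Jun probe set to this one averaged 0.34 ± 0.15 in DKK1-treated, 0.40 ± 0.09 in untreated and 1.19 ± 0.18 in primary cells (SD, n = 3). The ratio differed by -0.85 between DKK1-treated and primary and by -0.80 between untreated and primary cells, each with a two-sided exact permutation p of 0.1, the smallest that 3 arrays against 3 allow. With 3 arrays a group this test cannot pass 0.05. Which of the 2 Jun probe sets follows the transcript was not tested.

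For Fosl2 the second probe set was near the threshold in every group. It measured 51.5, 57.4 and 36.7 in DKK1-treated, 24.5, 65.1 and 62.1 in untreated, and 53.3, 48.3 and 61.4 in primary cells, with the groups overlapping. Its log2 difference in untreated against primary cells was -0.22 ± 0.40 (SE, limma adjusted p = 0.672). A second Jund probe set lay below the threshold on all 9 arrays, at 35.5, 30.8 and 32.1 in DKK1-treated, 20.0, 31.5 and 32.2 in untreated, and 22.6, 3.78 and 12.4 in primary cells, and was left out of the fit. The 7 other members had 1 probe set each.

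**Figure D3:**
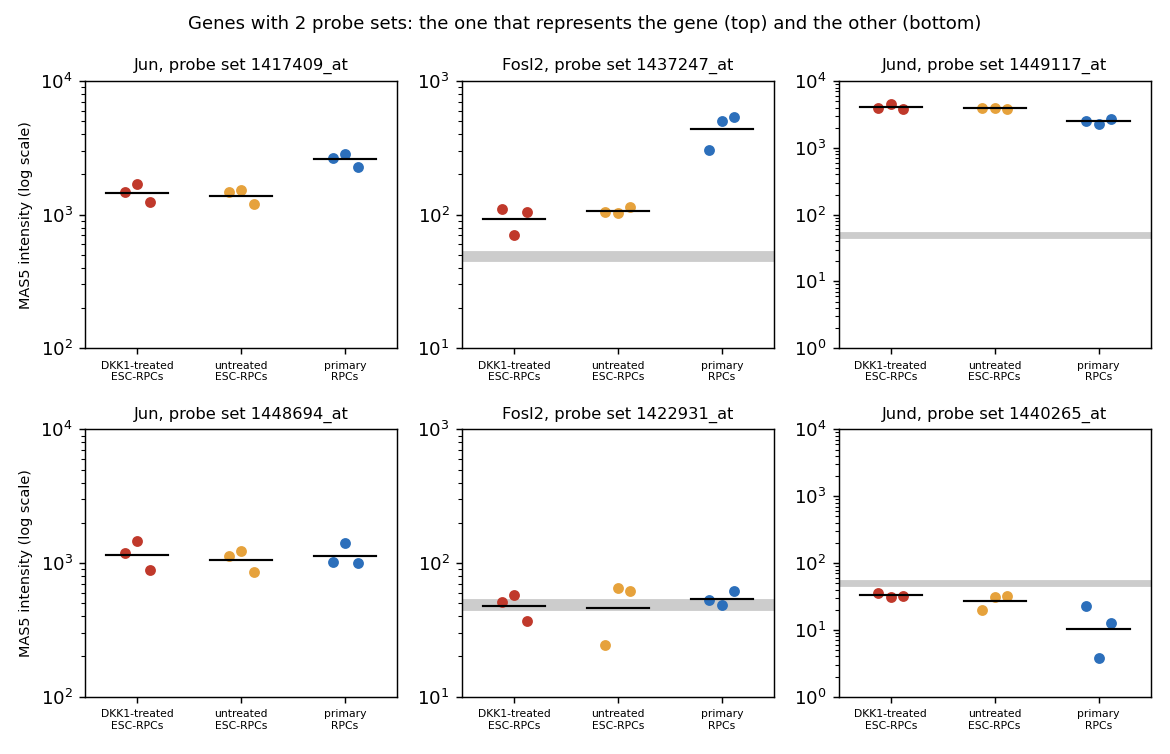
Intensity (log axis) on the 9 arrays of the representing probe set (top) and the second probe set (bottom) of Jun, Fosl2 and Jund, with points per array in the DKK1-treated, untreated and primary groups, geometric means as bars and the threshold range as a grey band. The second Jun probe set shows overlapping groups at 851 to 1459, and the second probe sets of Fosl2 and Jund lie near or below the threshold.

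Between DKK1-treated and untreated cells, the comparison that asks what 1 day of DKK1 did, no member was called. The limma fit called 0 of the 10 members, as it called 0% of all 13320 genes, and at an unadjusted p under 0.05 it had 1 member, Junb, beside 2.31% of all genes. Member differences had a median of 0.05 on the log2 scale, against -0.00183 over all genes. Junb showed the widest, 1.29 higher after DKK1 (SE 0.34, 95% interval 0.54 to 2.03, unadjusted p = 0.00302 in limma, adjusted p = 0.9997). With 32 added to every value it was 0.68, and with the untreated arrays below threshold the fold is at least 1.18-fold higher. Of all genes, 36 had a log2 difference at least as high as that of Junb. Fosb lay on the other side, with a log2 difference of -0.71 ± 0.41 (SE, 95% interval -1.62 to 0.20), and of -0.35 with 32 added to every value. Junb and Fosb were the 2 members with no overlap between the ESC-RPC groups, where 12% of all genes had none, 5.24% higher and 6.73% lower. The remaining 8 differences lay between -0.21 for Fosl2 and 0.21 for Ier2, and their intervals all included 0. For Fos the 95% interval was -0.41 to 0.82, and -0.02 to 0.43 with the replicate number as a block.

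Same-numbered DKK1-treated and untreated arrays deviated together across genes and were taken as pairs, and all 3 pairs went one way for 7 of 10 members, 5 higher and 2 lower. The same held for 37.4% of all genes, 18.4% higher and 19% lower. Within pairs, Junb was higher after DKK1 by 1.06, 1.12 and 1.68 on the log2 scale. Ier2 was higher by 0.18, 0.21 and 0.22, and Fos by 0.10, 0.14 and 0.37. Jun and Jund were also higher in all 3 pairs, at most by 0.23. Fosb was lower in each pair, at -0.87, -0.58 and -0.68, and so was Egr1, at -0.07, -0.25 and -0.22. Fosl2, Atf3 and Dusp1 differed in sign between pairs. With the replicate number as a block on the 6 ESC-RPC arrays, limma called 65 genes (0.488%) but none of the 10 members. The smallest adjusted p in this blocked limma fit was 0.0965 for Ier2 (SE 0.05), followed by 0.144 for Junb, 0.321 for Egr1 and 0.391 for Fos. At an unadjusted p under 0.05 the blocked fit had 3 members, Junb, Ier2 and Egr1, beside 15% of all genes.

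**Figure D4:**
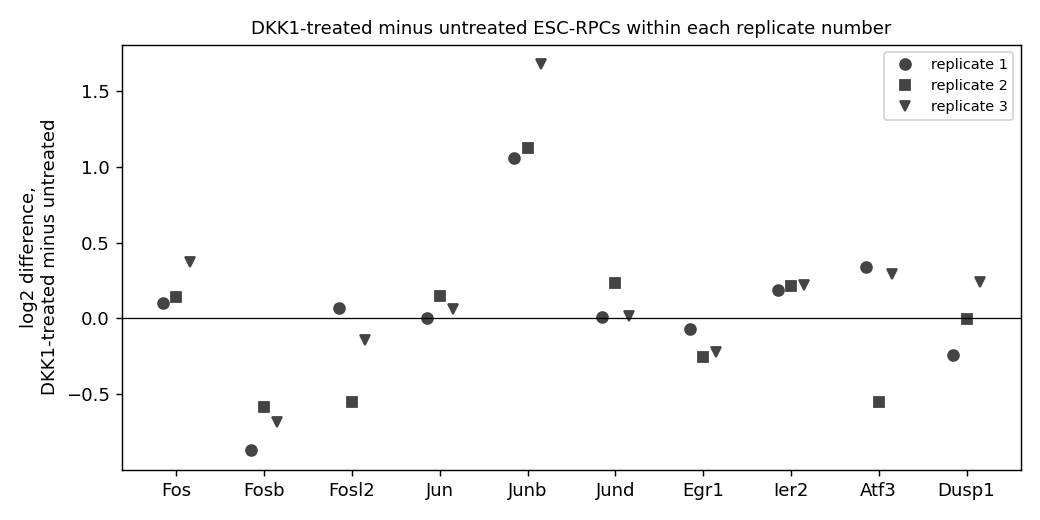
Log2 difference of each member between the DKK1-treated and the untreated array with the same replicate number, 1 symbol per number. All 3 symbols lie above 0 for Fos, Jun, Junb, Jund and Ier2 and below 0 for Fosb and Egr1, and the Junb symbols, at 1.06 to 1.68, lie farthest from 0.

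The spread within a group was widest for Fosb and Fos in primary cells. The highest primary array exceeded the lowest by 2.97-fold for Fosb, 2.14-fold for Fos, 1.74-fold for Fosl2, 1.66-fold for Junb and 1.51-fold for Ier2. For the other 5 members it was 1.37-fold or less. Among ESC-RPC arrays the widest spreads were 2.07-fold for Atf3 in untreated and 1.75-fold for Junb in DKK1-treated cells. With each member centred on its own mean over the 9 arrays, the mean log2 level of the 10 members was -0.39, -0.54 and -0.54 in DKK1-treated, -0.44, -0.53 and -0.73 in untreated, and 0.87, 1.26 and 1.05 in primary cells.

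Other immediate early genes gave a mixed picture in untreated against primary cells: of 42 measured genes of a list of 46, 22 fell, 6 rose and 14 did not pass the test (limma), with a median log2 difference of -0.43. On all arrays of each ESC-RPC group 2 of the 42 lay below the threshold, so they entered the fit through other arrays. In DKK1-treated against primary cells 19 fell and 4 rose (median -0.38), and in DKK1-treated against untreated cells none was called. For this and the later lists, the shares over all 13320 genes were 26.9% lower and 26.1% higher in untreated against primary cells. In DKK1-treated against primary cells these shares were 26.8% lower and 26% higher. Trib1, a pseudokinase gene, measured 96.5 ± 15.4 in untreated and 817 ± 113 in primary cells (log2 difference -3.09, limma adjusted p = 3.37e-07). Ier5, a growth factor and heat response gene, measured 1197 ± 94.0 in untreated and 3237 ± 660.1 in primary cells (-1.42, adjusted p = 2.73e-05), and the stress gene Gadd45a 793 ± 25.9 in untreated and 1934 ± 508 in primary cells (-1.25, adjusted p = 8.55e-05). The close relative of Egr1, Egr2, measured 82.8 ± 32.6 in untreated and 187 ± 65.8 in primary cells (-1.21, adjusted p = 0.018), and the orphan nuclear receptor gene Nr4a1 218 ± 13.7 in untreated and 591 ± 301 in primary cells (-1.29, adjusted p = 0.00657).

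The 6 that rose were Klf2, Klf4, Myc, Plk3, Bhlhe40 and Id1, of which Klf2, Klf4 and Myc are also known as genes of pluripotent cells. Klf2 measured 732 ± 85.2 in untreated and 81.7 ± 45.6 in primary cells (log2 difference 3.30, limma adjusted p = 9.43e-06), and Myc 657 ± 71.7 in untreated and 261 ± 69.5 in primary cells (1.36, adjusted p = 0.000138).

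Among the other bZIP factors, potential partners of the AP-1 members, 6 of 13 measured genes of a list of 17 fell, 2 rose and 5 did not pass in untreated against primary cells (median -0.56). DKK1-treated cells had 7 lower and 2 higher (median -0.42). Atf4, the main effector of the integrated stress response, measured 4245 ± 207 in untreated and 9389.8 ± 764 in primary cells (log2 difference -1.14, limma adjusted p = 8.23e-07). Crem, a cyclic AMP response factor, fell by 1.46 (limma adjusted p = 9.3e-05), and Maf, a large Maf factor, was higher, at 2607 ± 59.6 in untreated and 997 ± 248 in primary cells (1.42, adjusted p = 4.38e-05).

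The factors and kinases upstream of the members did not share their direction. Of 18 measured components of 28 listed, 7 rose, 4 fell and 7 did not pass in untreated against primary cells (median 0.14), and 6 rose and 3 fell in DKK1-treated against primary cells (median 0.06). Among all genes, 26.1% rose and 26.9% fell in untreated against primary cells. Mapk10, the neuronal JNK gene, measured 2633 ± 308 in untreated and 1016 ± 189 in primary cells (log2 difference 1.38, limma adjusted p = 6.88e-05). The ternary complex factor genes split, with Elk4 lower in untreated cells (1123 ± 36.3, against 1709 ± 79.4 in primary cells, adjusted p = 0.000185) and Elk3 higher (388 ± 3.84, against 244 ± 7.39 in primary cells, adjusted p = 0.000487). Srf itself measured 491 ± 27.1 in untreated and 937 ± 585 in primary cells and did not pass the test (-0.76, adjusted p = 0.0692).

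Genes induced by ERK as feedback, a read-out of the same pathway, fell for 6 of 12 measured genes of 14 listed, rose for 3 and did not pass for 3, in either ESC-RPC group against primary cells (median -0.31 in both). Dusp6, the cytoplasmic ERK phosphatase, measured 999.9 ± 136 in untreated and 6143 ± 699 in primary cells (log2 difference -2.62, limma adjusted p = 1.04e-07). Dusp5, its nuclear relative, measured 61.6 ± 8.67 in untreated and 716 ± 218 in primary cells (-3.50, adjusted p = 0.00026), while Spred2, an inhibitor of the pathway, was higher, at 2734 ± 26.5 in untreated and 1449 ± 64.7 in primary cells (0.92, adjusted p = 3.43e-06).

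Stress genes, listed because dissociation and culture can move them, also went both ways. Of 15 measured heat shock genes of 17 listed, 8 rose and 5 fell in untreated against primary cells (median 0.25), and 7 rose and 5 fell in DKK1-treated against primary cells (median 0.18). The inducible Hsp70 genes were among those that fell: Hspa1b measured 276 ± 44.2 in untreated and 1119.8 ± 336 in primary cells (log2 difference -1.99, limma adjusted p = 1.98e-05), and Hspa1a 107 ± 7.89 in untreated and 356 ± 60.5 in primary cells (-1.72, adjusted p = 3.87e-05). Hspb1, a small heat shock protein gene, rose to 2001 ± 364 in untreated cells, against 556 ± 50.6 in primary cells (1.84, adjusted p = 1.7e-06). Of 13 genes of ATF4 and related stress responses, 6 fell and 4 rose in untreated (median -0.29) and 5 fell and 3 rose in DKK1-treated against primary cells (median -0.38). Ddit3, the stress factor CHOP, measured 602 ± 152 in untreated and 2550.2 ± 457 in primary cells (-2.10, adjusted p = 2.1e-05). The part of dissociation or stress in the level of the members was not tested.

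**Figure D5:**
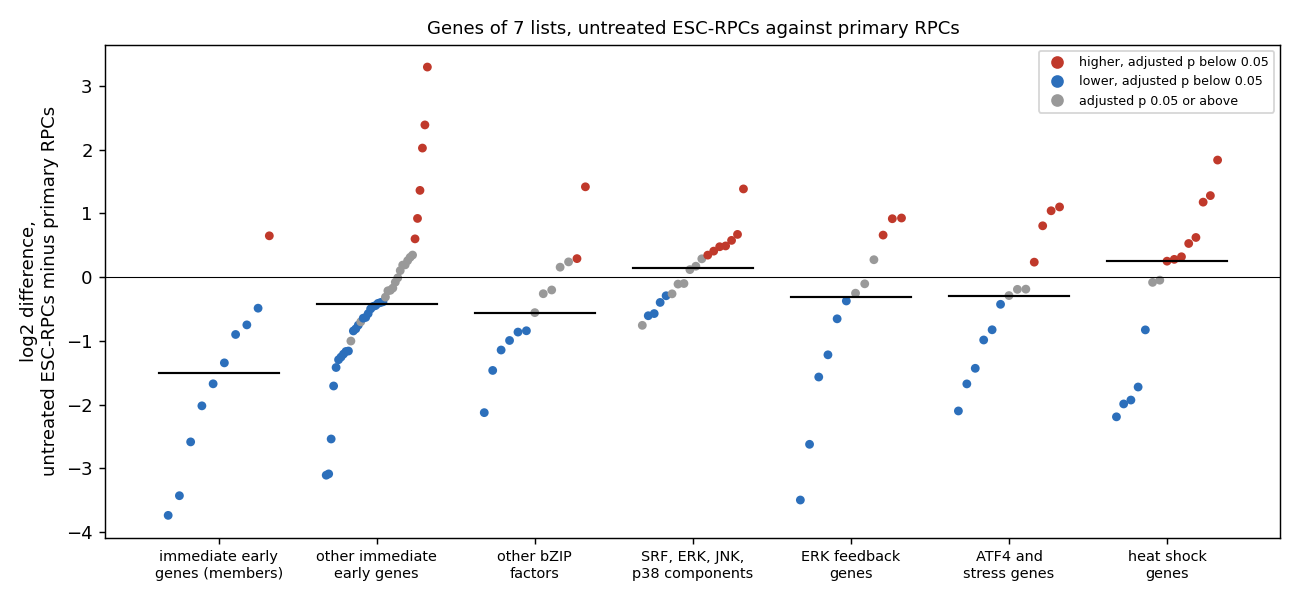
Log2 difference between untreated ESC-RPCs and primary RPCs for each measured gene of 7 lists, coloured by the limma call, with the median of a list as a black bar. Among these 7 lists the members have the lowest median, -1.51, with Fosb and Junb included. The members and the lists were chosen with earlier results of these data known, so the order of the medians is not a test. The upstream components and the heat shock genes have medians of 0.14 and 0.25. Some cell type lists not drawn here had lower medians: -1.57 for retinal progenitor, -1.79 for microglia and macrophage and -5.79 for photoreceptor genes.

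Genes that mark other cell types also differed between ESC-RPC and primary arrays. A marker below the threshold on all arrays of a group entered the fit only through the other arrays, so its difference was fixed by the filter. The summed intensity of the 8 photoreceptor genes measured, of 12 listed, was 6603 to 7688 in DKK1-treated, 6451 to 7868 in untreated and 47138 to 66033 in primary cells, with 7 of the 8 called lower in both ESC-RPC groups. Of these 8, 5 lay below the threshold on all DKK1-treated and 4 on all untreated arrays, so most of that count was built in. Crx, the defining photoreceptor factor, lay below the threshold on all 6 ESC-RPC arrays and measured 4478 ± 1461 in primary cells. Of 8 microglia and macrophage genes measured, of 12 listed, 6 in DKK1-treated and 5 in untreated cells were called lower, and their sum was 210.0 to 308 in DKK1-treated, 232 to 300.1 in untreated and 987 to 1728 in primary cells. In each ESC-RPC group 5 of these 8 genes lay below the threshold on all arrays, and in primary cells none did, so this count too was built in for the most part. Csf1r, a macrophage growth factor receptor gene, measured 80.9 ± 24.1 in DKK1-treated, 80.7 ± 22.9 in untreated and 111 ± 12.4 in primary cells. Of 4 endothelial and blood genes measured, of 11 listed, 2 fell and 2 were not called in either ESC-RPC group against primary cells. Their sum was 294 to 379 in DKK1-treated, 313 to 327 in untreated and 5804 to 7684 in primary cells, most of it Kdr, a receptor of vascular endothelial growth factor, at 6063 ± 1113 in primary cells. Cldn5 went the same way, at 81.8 ± 9.62 in untreated and 269 ± 95.5 in primary cells. Pecam1 did not, at 73.5 ± 3.12 in untreated and 50.7 ± 4.98 in primary cells. Esam overlapped, at 90.3 ± 7.96 in untreated and 129 ± 51.4 in primary cells. Pluripotency genes rose in 9 of 9, of which 5 were below the threshold on all primary arrays, with sums of 21856 to 23626 in DKK1-treated, 18771 to 22812 in untreated and 449 to 787 in primary cells. Mesenchymal genes rose in 8 of 9, of which 2 were below it on all primary arrays, with sums of 20203 to 23197 in DKK1-treated, 19774 to 23490.1 in untreated and 2782 to 3085 in primary cells. Astrocyte and Müller glia genes rose in 6 of 8, of which 2 were below it on all primary arrays, with sums of 26379 to 29191 in DKK1-treated, 26558 to 28531 in untreated and 10219.5 to 12494 in primary cells. The other 2 of these 8, Glul and Rlbp1, were called lower in both ESC-RPC groups. Glul measured 6130 ± 719 in untreated and 8452 ± 1198 in primary cells, and Rlbp1 142 ± 22.5 in untreated and 414 ± 136 in primary cells. Of 11 retinal progenitor genes, 7 fell, 3 rose (Sox2, Fgf15 and Sfrp2) and 1 was not called in untreated against primary cells, and the sums were 29037 to 33844 in DKK1-treated, 30547 to 34462 in untreated and 56673 to 61731 in primary cells. Retinal neuron genes went both ways: of 11 measured, 7 fell and 4 rose in untreated against primary cells. Their sums overlapped, at 12716 to 17015 in DKK1-treated, 12265 to 15354 in untreated and 13035 to 18659 in primary cells. Neural progenitor genes rose in 4 of 7 and fell in 2 in untreated against primary cells. The part of these cell types in the level of the members was not tested.

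The non-member genes with the array profile nearest to the mean of the 10 members, by root mean square log2 difference over the 9 arrays after centring each gene, were Lancl1 (0.110), Pgbd5 (0.118), Rasl10b (0.127), Rnf6 (0.131), Epb41l2 (0.133) and Iftap (0.135), against a median of 0.801 over all genes, members included. Nearest to Fos alone were Dkk3 (0.291), Vgf (0.303), Bdnf (0.322), Arrdc3 (0.336), 4930447C04Rik (0.348) and Ndrg1 (0.356), against a median of 1.76. Vgf and Bdnf encode a neuropeptide precursor and a neurotrophin. Bdnf measured 98.0 ± 10.8 in DKK1-treated, 93.4 ± 17.3 in untreated and 828 ± 241 in primary cells, and Vgf 104 ± 28.8 in DKK1-treated, 94.1 ± 26.3 in untreated and 1389 ± 188 in primary cells (SD, n = 3 each).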

How the data were processed

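RNA of 9 samples was hybridised to Affymetrix arrays. The deposited intensity values, 1 for each probe set of an array, come from MAS5, per the submitters' processing notes. The version, its settings and a genome build are not given in the sources used here. In all 9 columns the mean after trimming 2% at either end was 500, and the lowest value was 1. Precision is limited by the 3 arrays a group, with a median SE of 0.15 for a log2 difference.

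Log2 was taken of the deposited intensity values with no further normalisation. Of 45101 probe sets, 64 controls, 932 listed with several genes and 9160 with none were set aside, which left 34945. A probe set was kept if it exceeded its own array's 40th percentile (44.7 to 52.9, the low-intensity threshold) on at least 3 of 9 arrays, which left 24773 probe sets and 13320 genes. Each gene was represented by its brightest kept probe set (mean log2 over 9 arrays). In R 4.3.3, limma 3.58.1 fitted 1 mean per group to all arrays (eBayes with intensity trend, two-sided), with Benjamini-Hochberg adjustment over the 13320 genes and calls at an adjusted p below 0.05. If a group had its 3 arrays all under the threshold, the fold was computed against that threshold and is printed as "at least". Ratios of probe sets were tested by exact permutation. The scripts were tested on simulated data. Promoter windows were searched in Python 3.11.15.

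The members and all gene lists were chosen with earlier results of these data known. Named genes are the 10 members, up to 4 genes with the smallest adjusted p of each list, and a fixed set that included Srf, Egr2, Nr4a1, Myc, Dusp6, Hspa1b, Ddit3, Sox1, Pax6, Crx, Nanog, Csf1r. The 6 genes nearest to the members' mean profile and to Fos were added. Alternatives covered the filter, the trend, the offset, the scaling, the probe set rule, the replicate block and leaving out each array.

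Deviations of same-numbered DKK1-treated and untreated arrays from their group means correlated across genes at 0.123, 0.195 and 0.318, and those of different numbers at -0.234 to 0.0681. As each same-number value was over 0.1, these arrays were treated as pairs, although the labels state no pairing. Same-number values with the primary arrays were -0.0433 to -2.36e-06, so those were not paired.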

Additional observations from a re-analysis of the deposited data

How the results depend on the processing

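Of 544 log2 differences of members recomputed under 19 alternative settings, 535 kept their direction. Many of these could not change. The filters, the intensity trend and the replicate block left the log2 difference of each fitted member as it was. So did leaving out an array of a group outside the comparison. The setting with every probe set counted only each gene's representing probe set, so the second Jun probe set is not in this count. Without the intensity trend 1 gene changed between DKK1-treated and untreated cells in limma, and 65 with the replicate block on 6 arrays, but 0 of the 10 members in either; the replicate block on all 9 arrays called 0 members and changed no call of a member. Leaving out each array in turn, the calls numbered 0 members in DKK1-treated against untreated, 9 to 10 in DKK1-treated against primary (Ier2 lost, -0.72 to -0.42) and 10 in untreated against primary cells. The 9 reversals were uncalled differences between DKK1-treated and untreated cells near 0: the range was -0.22 to 0.30 for Atf3, -0.14 to 0.076 for Dusp1 and -0.035 to 0.18 for Jun. Averaging probe sets moved Jun in DKK1-treated against primary cells to -0.40 (adjusted p = 0.065 in limma), its second probe set having a difference of 0.02, and Fosl2 to -1.20 in DKK1-treated and -1.12 in untreated against primary cells. Adding 32 to every value moved Junb to 0.68 in DKK1-treated against untreated and to -1.62 in untreated against primary cells, and Fosb to -1.51 in DKK1-treated against primary cells. The 60th percentile filter removed Fosb and Junb, which therefore have no value there. MAS5 values near the threshold vary most between arrays, which limits Fosb, Junb and the second probe set of Fosl2.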

Other observations

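The primary arrays did not share 1 order over the immediate early genes. Of the 42 other immediate early genes, 24 (57.1%) were highest on primary replicate 2 among the primary arrays, as were 5 of the 10 members and 40.1% of all genes. Lists of other kinds showed such shares too: 71.4% of 7 neural progenitor, 66.7% of 9 pluripotency, 63.6% of 11 retinal neuron and 55.6% of 9 mesenchymal genes were highest on that array, while 87.5% of 8 photoreceptor and of 8 microglia genes were highest on primary replicate 3. The 40th percentile of that array, 52.9, was also the highest of the 9. This was noticed after the values were seen and was not tested. Npas4, an activity-dependent neuronal transcription factor, measured 83.7, 549 and 310.4 on the primary arrays, Nr4a1 282, 884 and 607, and Srf 707, 1602 and 503. Without primary replicate 2, all 10 members remained called in untreated against primary cells.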
